A study of Mus musculus with 144 samples.

Results

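Pck1, G6pc, Fbp1, Pcx, Tat, Sds, Got1 and Gpt2 encode enzymes of hepatic gluconeogenesis or enzymes that pass amino acid carbon into it. These 8 genes were taken by symbol from the 21869 genes of the deposited count tables, all 8 in liver and Pck1 also in brown adipose tissue (BAT), and all 8 passed the filter on low counts. The question was when in the day each enzyme's messenger RNA peaked relative to the meal, how large its daily wave was and how high it stood. The mice were fed at different hours, with or without a limit on amount.

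Gluconeogenesis is the making of new glucose from lactate, glycerol and amino acids, and the liver is its main site. It supplies blood glucose between meals, when glucagon and glucocorticoids raise transcription of its enzymes and insulin is low, and insulin after a meal represses the same genes. The liver clock also acts on several of them, so the hour of eating and the hour of the day both bear on their expression. In brown fat the Pck1 product makes glycerol 3-phosphate for storing fatty acids rather than glucose for the blood.

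All mice were male wild-type (WT) C57BL/6J animals, 6 months old by their labels, caged singly with a running wheel under 12 h of light and 12 h of dark, and fed pellets of a purified diet by an automated feeder. CR-day-6h mice received 70% of baseline intake within 6 h from lights on. TR-day-6h mice ate without limit on amount for the same 6 h. CR-night-6h mice (70% of baseline) and TR-night-6h mice (no limit on amount) had their 6 h from the start of the dark phase, and AL mice had food at all hours. Per the file headers feeding lasted 10 weeks, and per the series text tissue was taken in constant darkness, every 4 h at 12 time points. Times are circadian times (CT), with the day meal starting at CT 0 and the night meal at CT 12. Liver gave 24 libraries per regimen, with letters A and B at each time, so that 4 libraries share a clock time when both days are overlaid. BAT gave 12 libraries each of CR-day-6h (letter B, 11 with counts) and AL (letter A).

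Library totals ran from 5830040 to 26649153 counts in liver and from 6978002 to 11607273 in BAT. The file headers call the liver letters biological duplicates. The labels tie neither letters nor tissues to named animals, so p-values measure the spread between these samples. Mitochondrial transcripts took 13.7% of counts in CR-day-6h letter A and 13.3% in AL letter B, against 22.8 to 32.1% in the other 8 liver sets. Values within letters therefore stand beside the level differences that they change. In 4 liver and 2 BAT libraries the residual spread was wide, and in 2 TR-day-6h letter A libraries (0 and 44 h) the clock genes read 6 h or more off the label. The 4 measured hepatocyte markers summed to 37551 to 104267 CPM (counts scaled by library size) in liver libraries and to at most 1.26 CPM in BAT. Kidney markers, of an organ that also makes glucose, summed to at most 0.115 CPM in liver. Brown adipocyte markers summed to 2587 to 5672 CPM in BAT and to at most 13.6 CPM in liver.

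The stretches just upstream of Pck1 and G6pc are shown because these 2 genes encode the steps that hormones are best known to control, and because their daily waves differed in these data. The sequences are from RefSeq on GRCm38.p6, 250 bases ending just before RefSeq's annotated start, which lies inside the interval the files give for each of the 2 genes, 5′ to 3′ on the gene's strand, with matches to the searched motifs in capitals. The Pck1 stretch is chr2:173152823-173153072 and the G6pc stretch chr11:101367466-101367715, both on the plus strand.
Pck1: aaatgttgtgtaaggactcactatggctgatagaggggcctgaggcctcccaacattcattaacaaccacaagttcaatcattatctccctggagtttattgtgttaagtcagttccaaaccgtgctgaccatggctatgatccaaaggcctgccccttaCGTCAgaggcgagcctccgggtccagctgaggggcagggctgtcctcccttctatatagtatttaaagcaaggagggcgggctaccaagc
G6pc: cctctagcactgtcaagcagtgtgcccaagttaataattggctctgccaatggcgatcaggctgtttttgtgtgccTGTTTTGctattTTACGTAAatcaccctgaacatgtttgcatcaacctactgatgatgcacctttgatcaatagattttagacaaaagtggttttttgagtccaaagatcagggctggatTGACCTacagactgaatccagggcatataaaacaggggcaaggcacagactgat
The capitals in Pck1 are CGTCA, the reverse complement of the cAMP response core TGACG, at -90 to -86 from RefSeq's start. Of 32851 mouse promoter stretches of this length, 17.8% hold that core on either strand. In G6pc the capitals are the insulin response motif TGTTTTG at -174 to -168 (5.56% of stretches), the D-box TTACGTAA at -162 to -155 (TTATGTAA or TTACGTAA, 0.931%) and TGACCT, the reverse complement of the ROR core AGGTCA, at -54 to -49 (14% of stretches). The search also covered the full cAMP response element TGACGTCA (1.55%), the E-box CACGTG (6.02%), the FOXO motif TGTTTAC (3.17%) and the glucocorticoid receptor core TGTTCT (16.1%). Of the 8 stretches found for 7 of the genes, 1 of Pcx held an E-box and that of Got1 an AGGTCA, and a match is a description of letters, not of binding.

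Compared per length over all 120 liver libraries, Tat was the highest of the 8 enzymes, at 417 ± 229 RPKM (reads scaled by gene length and library size, mean ± SD). Fbp1 followed at 281 ± 89.9, Pck1 at 235 ± 198 and G6pc at 152 ± 82.1 RPKM. Lower down were Got1 at 64.4 ± 35.9, Pcx at 39.1 ± 35.2, Gpt2 at 38.5 ± 19.7 and Sds at 30.0 ± 28.2 RPKM. Neighbours in this order lay within the spread of the libraries, except that G6pc and Got1 differed by more than either SD. By the median over libraries Gpt2 (32.5 RPKM) stood above Pcx (22.6 RPKM), and the other ranks were the same.

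**Figure D1:**
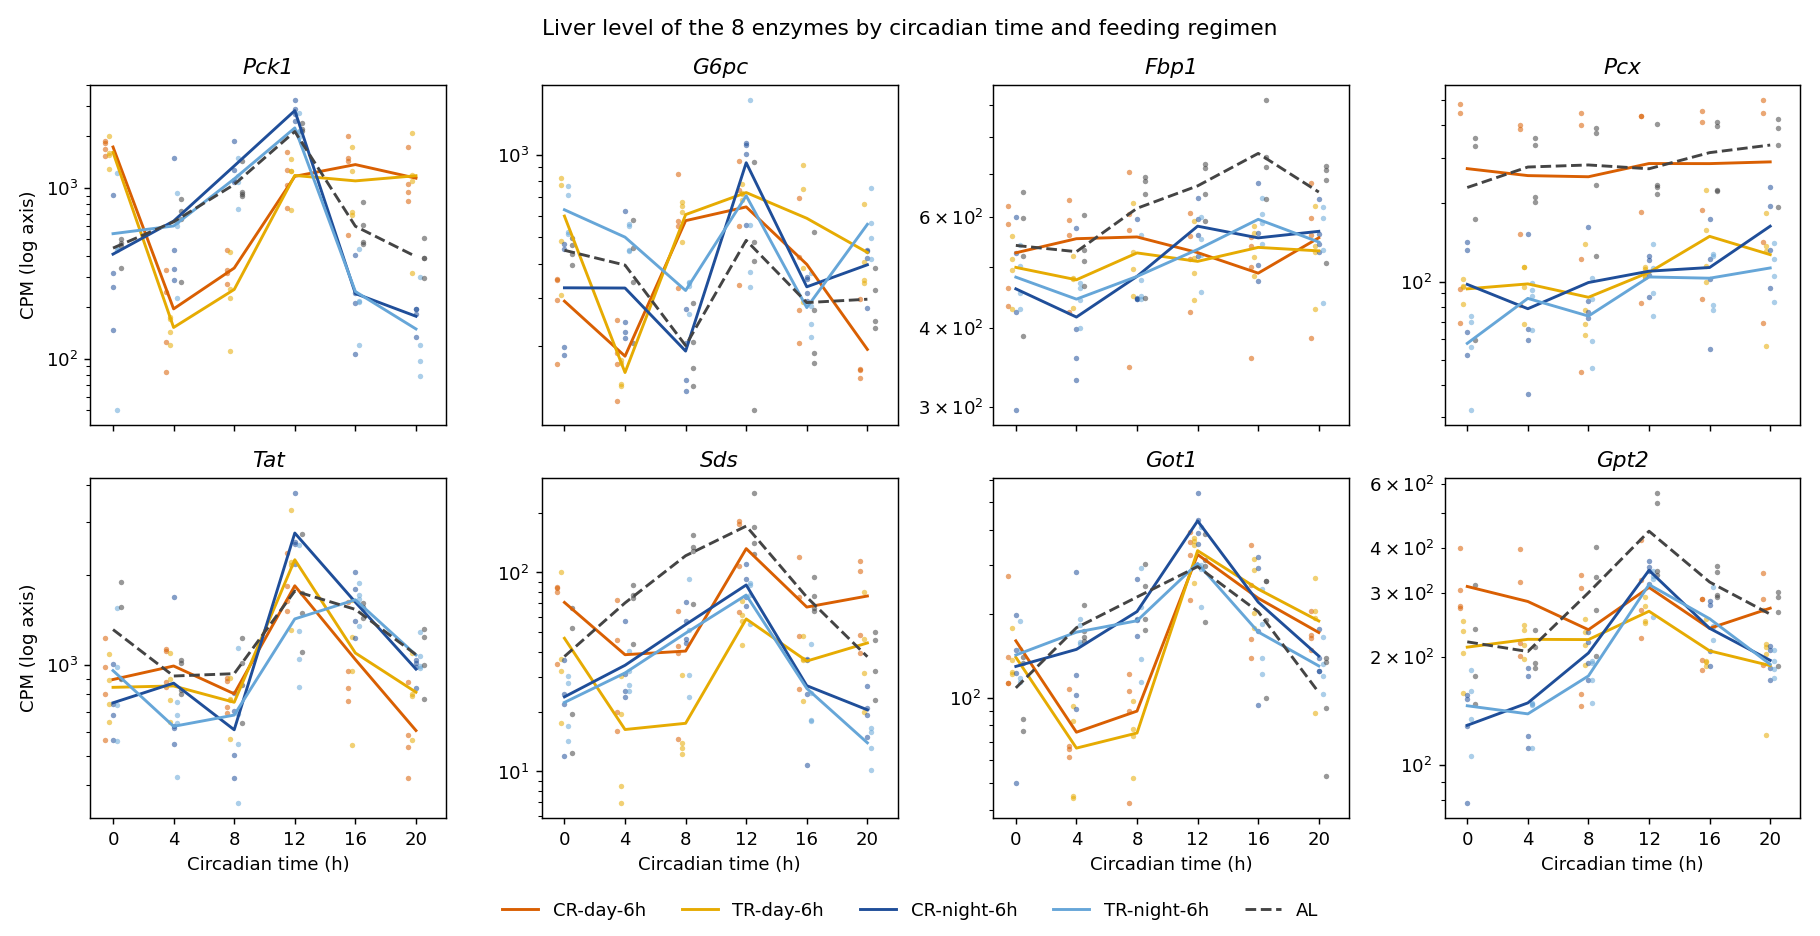
CPM of each enzyme in liver (log axis) against circadian time, with 1 point per library, both days overlaid, and lines through the means of 4 libraries per regimen and time. Pck1 is low at CT 4 in both day-fed regimens and at CT 16 and 20 in both night-fed ones, while Tat, Sds, Got1 and G6pc have their highest mean at CT 12 in nearly every regimen.

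Pck1 encodes cytosolic phosphoenolpyruvate carboxykinase, which turns oxaloacetate into phosphoenolpyruvate (ENSMUSG00000027513.11, chromosome 2, 173153048 to 173159273, mm10). Its level in single libraries ran from 83.3 CPM (median 988, highest 2012) in CR-day-6h liver and from 111 (median 922, highest 2100) in TR-day-6h liver. In CR-night-6h liver the lowest, median and highest values were 106, 370 and 3251 CPM, in TR-night-6h liver 50.1, 523 and 2736 CPM, and in AL liver 281, 631 and 2392 CPM. The ranges of all regimens overlap, and what differs is the hour at which high and low libraries occur.

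In every restricted regimen the Pck1 level 4 h after the scheduled start of the meal was far below that at its start, with no overlap between the 4 libraries at either time. CR-day-6h liver had 196 ± 112 CPM at 4 h, against 1734 ± 164 at meal start. TR-day-6h liver had 152 ± 25.5 CPM at 4 h, against 1614 ± 304 at meal start. For CR-night-6h the values were 240 ± 124 CPM at 4 h, against 2833 ± 326 at meal start, and for TR-night-6h 247 ± 134 CPM at 4 h, against 2243 ± 336 at meal start. The ratio of meal start to 4 h later was 8.87, 10.6, 11.8 and 9.08 in that order of regimens. These ratios were not tested, and the labels do not say whether the last meal was given as scheduled.

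After the meal the 2 kinds of regimen took different courses. With day meals Pck1 was still low at 8 h (339 ± 66.4 CPM in CR-day-6h, 254 ± 129 in TR-day-6h) and then stood near a plateau from CT 12 through CT 0. CR-day-6h means on that plateau were 1168, 1369, 1140 and 1734 CPM, and TR-day-6h means 1182, 1099, 1177 and 1614 CPM. In CR-day-6h liver the 8 libraries at 4 and 8 h (83.3 to 432 CPM) did not overlap the other 16 (527 to 2012 CPM). Elsewhere the 8 libraries at 4 and 8 h after meal start overlapped the others: 1 of 16 in TR-day-6h, 5 of 16 in CR-night-6h and 3 of 16 in TR-night-6h liver stood at or below the highest of the 8. With night meals the climb was slower: CR-night-6h means at CT 0, 4, 8 and 12 were 409, 639, 1343 and 2833 CPM, and TR-night-6h means 539, 598, 1129 and 2243 CPM. AL liver also had its highest mean at CT 12 (2138 ± 245 CPM), with 396 ± 85.6 CPM at CT 20.

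**Figure D2:**
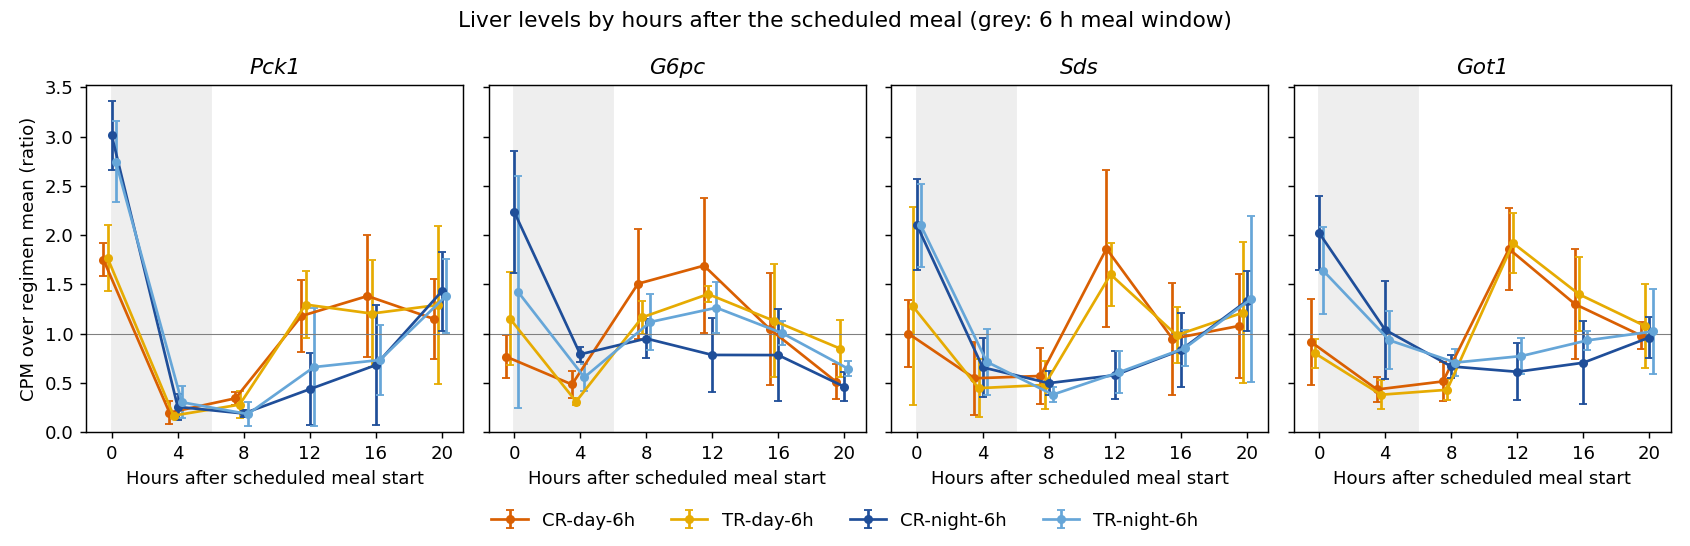
Liver level of Pck1, G6pc, Sds and Got1 as a ratio to the regimen's own mean, against hours after the scheduled meal start, in the 4 restricted regimens; points are means of 4 libraries, bars are SD, and grey marks the 6 h meal window. All 4 Pck1 curves are low at 4 and 8 h, whereas Sds and Got1 of day-fed mice have their highest mean 12 h after the meal start and those of night-fed mice at the meal start, which are both CT 12.

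A 24 h cosine put the Pck1 peak at CT 18.0 ± 0.805 (SE) in CR-day-6h and CT 18.1 ± 0.759 in TR-day-6h liver, at CT 9.20 ± 0.597 in CR-night-6h, CT 8.95 ± 0.606 in TR-night-6h and CT 10.5 ± 0.991 in AL liver. Its amplitude, from mean to peak on the log2 scale, was 1.32, 1.40, 1.78, 1.75 and 1.07 in the same order, each ± 0.28. Pck1 was rhythmic in all 5 regimens, with adjusted p of 0.00771, 0.00436, 6.3e-07, 3.5e-05 and 0.00356 in edgeR's quasi-likelihood F test, Benjamini-Hochberg adjusted over all genes tested. Day meals set at night meals moved the peak by 8.85 h under CR (95% interval 6.88 to 10.8) and by 9.17 h under TR (7.27 to 11.1). The rhythm changed in both of those comparisons by the same edgeR test (adjusted p = 9.1e-08 and 5.8e-07). It also changed against AL in CR-day-6h liver (adjusted p = 1.2e-04) and in TR-day-6h liver (adjusted p = 8.2e-05). By the same edgeR test the TR-day-6h call was lost with letter A alone (0.0844), and with day 2 alone (24 to 44 h) both calls against AL missed narrowly (0.0560 in CR-day-6h, 0.0506 in TR-day-6h). With either letter alone Pck1 did not pass the rhythm test itself in CR-day-6h, TR-day-6h or AL liver (edgeR adjusted p from 0.0689 to 0.255).

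The Pck1 wave of restricted mice was not a plain 24 h cosine. A 12 h component passed the edgeR test in CR-day-6h (adjusted p = 0.0147), TR-day-6h (0.00139), CR-night-6h (0.0172) and TR-night-6h liver (0.0139) and not in AL liver (1.00, unadjusted p = 0.0923). Over all genes that component passed for 0.713%, 0.696%, 0.654%, 0.134% and 0.00839% in the same order. Whether that component differed between regimens was not tested. With both components the highest point lay at CT 22.3 in CR-day-6h, CT 22.55 in TR-day-6h, CT 10.6 in CR-night-6h, CT 10.85 in TR-night-6h and CT 11.25 in AL liver. On that curve day meals set at night meals moved the Pck1 peak by 11.7 h under CR and by 11.7 h under TR. For reference, core clock genes rhythmic in both groups had a median cosine shift of -9.89 h (15 genes) under CR and -9.69 h (15 genes) under TR, with shifts read within 12 h either way.

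Sds, Got1, Gpt2 and Tat act on amino acids. Serine dehydratase (Sds) turns serine into pyruvate. Got1, the cytosolic aspartate aminotransferase, and Gpt2, the mitochondrial alanine aminotransferase, interconvert amino acids with oxaloacetate and pyruvate. Tyrosine aminotransferase (Tat) opens tyrosine breakdown and is a classical glucocorticoid-induced gene. The genes lie at chromosome 5, 120476526 to 120483932 (Sds, ENSMUSG00000029597.14), chromosome 19, 43499752 to 43524605 (Got1, ENSMUSG00000025190.13), chromosome 8, 85492576 to 85527560 (Gpt2, ENSMUSG00000031700.11) and chromosome 8, 109990437 to 109999803 (Tat, ENSMUSG00000001670.13).

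Got1 ran from 42.4 CPM (median 145, highest 391) in CR-day-6h liver, from 44.0 (157, 372) in TR-day-6h, from 49.8 (175, 540) in CR-night-6h, from 104 (162, 410) in TR-night-6h and from 53.0 (175, 385) in AL liver. It was highest at CT 12 in all 5 regimens: 326 ± 72.4 CPM in CR-day-6h, 336 ± 53.5 in TR-day-6h, 429 ± 80.0 in CR-night-6h, 303 ± 81.4 in TR-night-6h and 295 ± 81.5 in AL liver. The low hours differed instead. Day-fed livers were lowest at CT 4, with 75.7 ± 21.6 CPM in CR-day-6h and 66.4 ± 25.7 in TR-day-6h, when CR-night-6h, TR-night-6h and AL livers had 149 ± 89.6, 172 ± 18.0 and 179 ± 25.3 CPM.

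By a single cosine the Got1 peak lay at CT 15.9 ± 0.713 in CR-day-6h, CT 16.0 ± 0.579 in TR-day-6h, CT 12.1 ± 0.765 in CR-night-6h, CT 10.8 ± 1.36 in TR-night-6h and CT 10.4 ± 0.804 in AL liver, and Got1 was rhythmic in all 5. Its rhythm changed by the edgeR test against AL in CR-day-6h (shift 5.53 ± 1.07 h, adjusted p = 0.00172) and TR-day-6h liver (5.61 ± 0.991 h, adjusted p = 2.0e-04). Day against night feeding gave 3.84 ± 1.05 h under CR (adjusted p = 0.0195) and 5.24 ± 1.48 h under TR (adjusted p = 7.4e-04, edgeR). With letter B alone 3 of these 4 calls were lost in the edgeR test (adjusted p = 0.0755, 0.0761 and 0.0762) and with letter A alone the CR-day-6h minus CR-night-6h one (0.122). With the 12 h component added, the Got1 peaks lay at CT 13.15, 13.4, 11.95, 12.1 and 12.15 in the order above, so that the 4 shifts shrank to 1.00, 1.25, 1.20 and 1.30 h. A 12 h component of Got1 passed the edgeR test in CR-day-6h liver (adjusted p = 0.0395) and missed it in TR-day-6h liver (0.0553). The Got1 rhythm itself did not pass with either letter alone in TR-night-6h liver (edgeR adjusted p = 0.166 and 0.214). With letter B alone it did not pass in CR-day-6h (0.111) or AL liver (0.343).

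Sds shared with Got1 its highest mean at CT 12 in all 5 regimens. Its libraries ran from 14.5 CPM (median 63.8, highest 181) in CR-day-6h, from 6.97 (31.5, 101) in TR-day-6h, from 10.7 (33.4, 111) in CR-night-6h, from 10.2 (27.6, 92.3) in TR-night-6h and from 12.4 (71.9, 250) in AL liver. At CT 12 the means were 132 ± 56.4, 58.4 ± 11.8, 86.5 ± 19.0, 77.0 ± 15.5 and 171 ± 56.1 CPM in that order. At CT 4 they were 38.6 ± 26.3, 16.2 ± 10.8, 34.2 ± 15.5, 31.3 ± 6.69 and 70.3 ± 18.6 CPM, the AL mean being the highest. The cosine was significant in CR-night-6h, TR-night-6h and AL liver (amplitudes 0.97, 1.01 and 1.20 log2 units, each ± 0.21) and missed the threshold in CR-day-6h and TR-day-6h liver (0.58 and 0.78, edgeR adjusted p = 0.0927 and 0.0624). Both passed the edgeR test with a separate intercept for each regimen and letter (0.0417 and 0.0129) and after correction for GC content (0.0249 and 0.0264), and TR-day-6h also by DESeq2 (0.0430). Its rhythm changed against AL in CR-day-6h (adjusted p = 0.00421) and TR-day-6h liver (2.3e-04), and between day and night meals under CR (0.00694) and TR (1.7e-04), all by the edgeR test. With letter B alone the 2 CR-day-6h calls were lost (0.112 and 0.0519).

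Gpt2 had a daily wave in night-fed and freely fed livers and none that passed the test in day-fed ones. Its amplitude was 0.09 ± 0.09 log2 units in CR-day-6h and 0.18 ± 0.09 in TR-day-6h (edgeR adjusted p = 0.863 and 0.410), against 0.64, 0.58 and 0.50, each ± 0.09, in CR-night-6h, TR-night-6h and AL liver. At CT 12 the means were 311 ± 84.7 CPM in CR-day-6h, 267 ± 21.7 in TR-day-6h, 346 ± 21.5 in CR-night-6h, 316 ± 39.6 in TR-night-6h and 445 ± 121 in AL liver. At CT 0 they were 313 ± 59.1, 212 ± 40.7, 129 ± 35.7, 146 ± 33.4 and 220 ± 74.0 CPM. The CR-day-6h libraries at CT 0 (272 to 398 CPM) lay above all 4 CR-night-6h libraries at that hour (78.9 to 157 CPM). The rhythm changed in CR-day-6h minus AL (adjusted p = 0.00109), CR-day-6h minus CR-night-6h (1.8e-05) and TR-day-6h minus TR-night-6h (0.00265) by the edgeR test. TR-day-6h minus AL passed narrowly (edgeR adjusted p = 0.0424) and did not pass without the libraries of wide spread (0.106) or with no filter on low counts (0.0729). Nor did it pass with either letter alone (edgeR adjusted p from 0.128 to 0.147).

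Tat was high at CT 12 in most regimens. Its highest mean lay at CT 12 in CR-day-6h (1842 ± 376 CPM), TR-day-6h (2251 ± 815), CR-night-6h (2763 ± 685) and AL liver (1770 ± 694), and at CT 16 in TR-night-6h liver (1655 ± 220). Single libraries ran from 422 to 2368 CPM (median 883) in CR-day-6h, 542 to 3303 (898) in TR-day-6h, 422 to 3754 (998) in CR-night-6h, 348 to 2518 (990) in TR-night-6h and 641 to 2734 (1169) in AL liver, and all ranges overlap. Tat was rhythmic in TR-day-6h, CR-night-6h and TR-night-6h liver (edgeR adjusted p = 0.00774, 1.5e-05 and 0.00184), with cosine peaks at CT 12.8 ± 1.20, 14.4 ± 0.703 and 16.4 ± 0.851. In CR-day-6h liver it missed the threshold (0.0559 by edgeR, 0.0466 by DESeq2), and in AL liver the adjusted p was 0.269. By edgeR the CR-day-6h rhythm passed with an intercept for each regimen and letter (0.0483) and without the libraries of wide spread (0.0436). It also passed after GC correction (0.0386) and with 12 h cosines added (0.0394). The TR-day-6h rhythm was lost with letter A alone (edgeR adjusted p = 0.278), and the TR-night-6h rhythm with letter B alone (0.115). With all libraries and a single cosine no comparison of the Tat rhythm passed the edgeR test. The nearest was CR-day-6h minus CR-night-6h (adjusted p = 0.0877), with a peak difference of -3.51 h (95% interval -6.43 to -0.583). With 12 h cosines added to the fit that comparison passed (edgeR adjusted p = 0.0274).

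**Figure D3:**
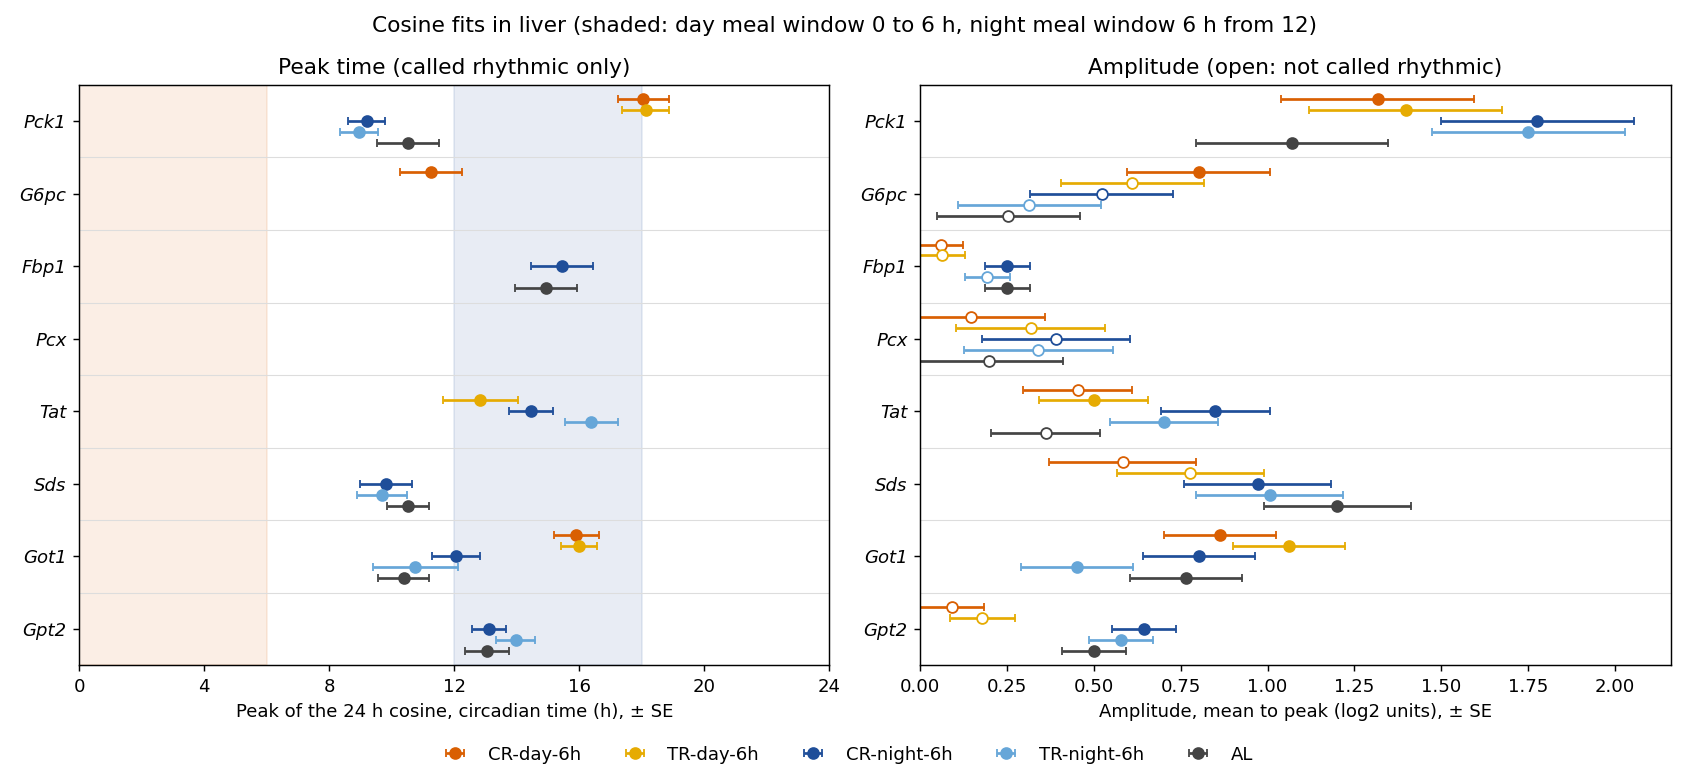
Peak time of the 24 h cosine (left, circadian time, only where the gene passed the rhythm test) and amplitude from mean to peak in log2 units (right, open where it did not pass) for each enzyme and regimen in liver, with SE. Pck1 and Got1 peak later in the day-fed regimens than in the other 3, and the Gpt2 amplitude is 0.09 and 0.18 in the day-fed regimens, against 0.50 to 0.64 in the others.

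Pcx, Fbp1 and G6pc stand at the entry, near the end and at the last step of the pathway. Pyruvate carboxylase (Pcx, ENSMUSG00000024892.15, chromosome 19, 4510472 to 4621752) makes oxaloacetate from pyruvate in mitochondria. Fructose-1,6-bisphosphatase (Fbp1, ENSMUSG00000069805.10, chromosome 13, 62864753 to 62888282) removes a phosphate from fructose 1,6-bisphosphate. The catalytic subunit of glucose-6-phosphatase (G6pc, ENSMUSG00000078650.2, chromosome 11, 101367561 to 101377903) releases free glucose.

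Pcx was rhythmic in none of the regimens by the edgeR test, with unadjusted p from 0.173 to 0.880 and amplitudes from 0.15 to 0.39 log2 units, each ± 0.21. With a separate intercept for each regimen and letter Pcx passed in CR-night-6h liver (edgeR adjusted p = 0.0341). Fbp1 had a shallow wave in CR-night-6h and AL liver (amplitude 0.25 ± 0.07 in each, edgeR adjusted p = 0.0121 and 0.0163), peaking at CT 15.4 ± 0.990 and 14.9 ± 0.990. In TR-night-6h liver Fbp1 missed the threshold (0.0557) and passed with the letter as a block (0.0420), with an intercept for each regimen and letter (0.0117), after GC correction (0.0231) and by DESeq2 (0.0449). In CR-day-6h and TR-day-6h liver its amplitude was 0.06 ± 0.07. The Fbp1 rhythm changed in CR-day-6h minus AL (edgeR adjusted p = 0.0325, 0.0741 with no filter on low counts) and in CR-day-6h minus CR-night-6h (0.0305). Either letter alone lost the second of these, and letter B alone the first (0.349).

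With all libraries and a single cosine G6pc passed the edgeR rhythm test in CR-day-6h liver and in no other regimen. Its libraries ran from 126 CPM (median 312, highest 950) in CR-day-6h, from 144 (551, 919) in TR-day-6h, from 138 (333, 1099) in CR-night-6h, from 216 (448, 1576) in TR-night-6h and from 117 (332, 943) in AL liver. Its amplitude in CR-day-6h liver was 0.80 ± 0.21 log2 units, peaking at CT 11.3 ± 0.980 (edgeR adjusted p = 0.00729), against 0.25 ± 0.21 in AL liver (0.972). The change of rhythm passed by a little (edgeR adjusted p = 0.0475) and did not pass without the 4 liver libraries of wide spread (0.179), of which 2 were AL and 2 CR-day-6h, or with no filter on low counts (0.0558). Nor did it pass with letter B alone (0.105) or letter A alone (0.293), where the CR-day-6h rhythm was lost too (0.105 and 0.0791, edgeR). The CR-night-6h rhythm missed narrowly (edgeR adjusted p = 0.0573), and TR-day-6h and TR-night-6h had 0.256 and 0.870. CR-night-6h passed by DESeq2 (0.0431), and by edgeR with an intercept for each regimen and letter (0.0440) or without the libraries of wide spread (0.0445). With 12 h cosines added, the 24 h rhythm of TR-day-6h passed (edgeR, 0.0367), as did the change in TR-day-6h minus TR-night-6h (0.0403). G6pc had its highest mean at CT 12 in all 5 regimens, at 645 ± 263 CPM in CR-day-6h, 728 ± 42.5 in TR-day-6h, 935 ± 258 in CR-night-6h, 708 ± 587 in TR-night-6h and 487 ± 342 in AL liver. The lowest mean was at CT 4 in CR-day-6h (184 ± 51.0 CPM) and TR-day-6h liver (161 ± 18.5 CPM), at CT 8 in CR-night-6h (192 ± 62.1 CPM) and AL liver (202 ± 63.8 CPM), and at CT 16 in TR-night-6h liver (277 ± 67.5 CPM).

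Counted together, the rhythmic enzymes were 3 of 8 in CR-day-6h (16.4% of all 11926 genes tested were called), 3 in TR-day-6h (15.4%), 6 in CR-night-6h (35.3%), 5 in TR-night-6h (26.4%) and 5 in AL liver (12.4%). The rhythm changed in 6 of 8 in CR-day-6h minus AL (21.9% of all genes) and 4 in TR-day-6h minus AL (16.3%). It changed in 5 of 8 in CR-day-6h minus CR-night-6h (34% of all genes) and 4 in TR-day-6h minus TR-night-6h (25.8%). Pck1, Sds, Got1 and Gpt2 passed in all 4 of these comparisons, which share libraries. In 27 of the 40 combinations of enzyme and regimen the highest mean was at CT 12, among them 4 of 8 in CR-day-6h and 5 of 8 in TR-day-6h liver. How often all genes had their highest mean at CT 12 was not counted. The 40 combinations share genes and libraries, so this count describes the enzymes and was not tested.

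No change of rhythm was detected between CR and TR at the same meal hours, or with night meals against AL. None of the 8 passed in CR-night-6h minus AL (0.0252% of all genes called), TR-night-6h minus AL (0.00839%), CR-day-6h minus TR-day-6h (0.00839%) or CR-night-6h minus TR-night-6h (0%), by edgeR or by DESeq2. At an unadjusted p under 0.05 edgeR gave 1, 0, 0 and 0 enzymes. For Pck1 the peak difference was -0.08 h (95% interval -2.25 to 2.09) in CR-day-6h minus TR-day-6h and 0.25 h (-1.42 to 1.92) in CR-night-6h minus TR-night-6h. The same differences of Got1 were -0.08 h (-1.88 to 1.72) and 1.31 h (-1.75 to 4.38). These intervals bound only the shift of the single-cosine peak of Pck1 and Got1 that the 24 libraries per regimen could have missed. Other enzymes are not bounded by them. Pcx had -12.9 to 11.2 h in CR-day-6h minus TR-day-6h, and G6pc -15.2 to -3.76 h in CR-night-6h minus TR-night-6h. Neither was rhythmic in both groups. Nor do they bound a change of amplitude, which for Pck1 in CR-day-6h minus TR-day-6h was -0.08 log2 units (95% interval -0.85 to 0.69). The interaction, the day minus night change under CR minus that under TR, passed for 0 of 8 rhythms by edgeR and by DESeq2 (0% of all genes; 0 at an unadjusted p under 0.05).

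Mean levels over the day were compared next. Against AL, Pcx, Sds, Gpt2 and Fbp1 fell in TR-day-6h, CR-night-6h and TR-night-6h liver, and G6pc rose in TR-day-6h and TR-night-6h liver. That makes 5 of 8 enzymes changed in TR-day-6h (80.4% of all genes called), 4 in CR-night-6h (79.2%) and 5 in TR-night-6h liver (80.7%), a smaller share than that of all genes. In CR-day-6h minus AL only Fbp1 passed (1 of 8; 19.6% of all genes). The median log2 fold of the 8 was -0.09 in CR-day-6h, -0.26 in TR-day-6h, -0.24 in CR-night-6h and -0.29 in TR-night-6h liver against AL, beside 0.01, -0.03, -0.02 and -0.01 over all genes.

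Pcx showed the widest level differences. Its libraries ran from 44.9 to 498 CPM (median 288) in CR-day-6h, 56.5 to 224 (104) in TR-day-6h, 36.9 to 231 (104) in CR-night-6h, 32.1 to 140 (86.8) in TR-night-6h and 59.7 to 423 (283) in AL liver. The log2 fold against AL was -1.38 ± 0.20 in TR-day-6h, -1.39 ± 0.20 in CR-night-6h and -1.68 ± 0.20 in TR-night-6h liver (edgeR adjusted p = 1.5e-09, 1.6e-09 and 3.1e-12). Within letter A these folds were -0.93, -0.64 and -1.41 and within letter B -1.68, -2.05 and -1.85. In CR-day-6h liver the 2 letters did not overlap: letter A held 387 to 498 CPM and letter B 44.9 to 188 CPM, and the fold against AL was 1.11 within letter A and -1.75 within letter B.

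**Figure D4:**
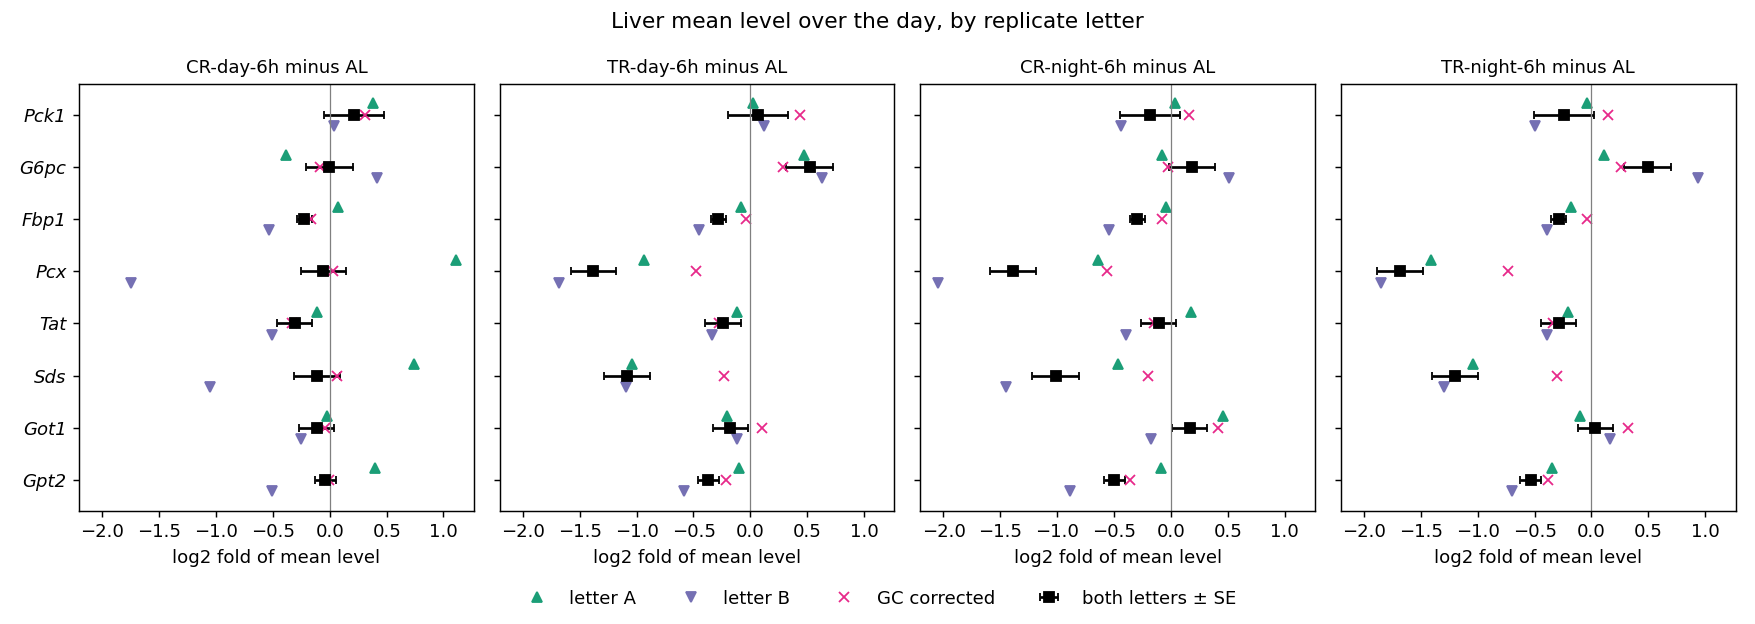
Log2 fold of the mean level over the day against AL in liver for each enzyme (squares with SE), within letter A (up triangles), within letter B (down triangles) and after correction for GC content (crosses). In CR-day-6h liver the letters lie on opposite sides of 0 for G6pc, Fbp1, Pcx, Sds and Gpt2.

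Sds fell by 1.08 ± 0.20, 1.01 ± 0.20 and 1.20 ± 0.21 log2 units in TR-day-6h, CR-night-6h and TR-night-6h liver against AL (edgeR adjusted p = 1.3e-06, 5.2e-06 and 1.3e-07). Within letter A the Sds folds were -1.04, -0.47 and -1.04, of which that of CR-night-6h did not pass (edgeR adjusted p = 0.0793), and within letter B -1.09, -1.45 and -1.30. In CR-day-6h liver Sds was 0.74 within letter A and -1.06 within letter B. Gpt2 fell by 0.37, 0.50 and 0.54 and Fbp1 by 0.28, 0.30 and 0.29 log2 units in those 3 regimens (edgeR adjusted p at most 1.6e-04), while within letter A the Fbp1 folds were -0.09, -0.04 and -0.18 and the Gpt2 folds -0.10, -0.09 and -0.35, of which the TR-night-6h ones passed. Fbp1 fell by 0.22 ± 0.07 in CR-day-6h (edgeR adjusted p = 0.0118), with 0.07 within letter A and -0.54 within letter B. G6pc rose by 0.52 ± 0.21 in TR-day-6h and 0.50 ± 0.21 in TR-night-6h liver (edgeR adjusted p = 0.0171 and 0.0231), with 0.47 and 0.11 within letter A, where neither passed, and 0.63 and 0.93 within letter B.

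The letter and GC content moved with these levels. The GC content of the longest transcript was 57.7% for Pcx and 57.4% for Sds, the highest of the 8, and 47.7% for G6pc, the lowest, beside a median of 48.7% over genes. After correction for GC content the Sds folds against AL were -0.23, -0.20 and -0.30 and those of G6pc 0.28 in TR-day-6h and 0.26 in TR-night-6h, none past the edgeR threshold. The Pcx folds were -0.48, -0.56 and -0.73 and still passed (adjusted p = 4.0e-04, 4.2e-05 and 1.4e-07). The corrected Gpt2 folds were -0.22, -0.36 and -0.38 and passed too, and those of Fbp1 were -0.04, -0.07 and -0.04 and did not. The part of the letter in these results cannot be told apart from that of the regimen where a set of 12 libraries stands apart. Median sums of markers of other liver cells differed between regimens too, and not all in the same way. The 3 macrophage and Kupffer markers had median sums of 32.4 CPM in CR-day-6h, 21.6 in TR-day-6h, 23.4 in CR-night-6h, 18.9 in TR-night-6h and 39.9 in AL liver, within 10.6 to 96.6 CPM over all libraries. The 3 stellate markers had 167, 232, 230, 242 and 166 CPM in the same order, within 122 to 477 CPM. No marker of these lists was at 0 throughout a regimen, and their part in the levels was not tested. In bulk tissue, fewer cells of a type and less RNA per cell cannot be told apart.

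Levels were then set day against night and CR against TR. In CR-day-6h minus CR-night-6h, 3 of 8 enzymes changed (67.9% of all genes), all upward, Pcx by 1.33 ± 0.20, Sds by 0.90 ± 0.20 and Gpt2 by 0.46 ± 0.09 log2 units. In CR-day-6h minus TR-day-6h, 4 of 8 changed (69.5% of all genes): Pcx rose by 1.32 ± 0.20, Sds by 0.97 ± 0.20 and Gpt2 by 0.33 ± 0.09, and G6pc fell by 0.53 ± 0.21. In letter B alone none of these calls passed, where 2.23% and 0% of all genes did: Pcx was then 0.30 and -0.06, Sds 0.39 and 0.03, and Gpt2 0.37 and 0.08 in the 2 comparisons. No enzyme passed in TR-day-6h minus TR-night-6h (3.42% of all genes) or CR-night-6h minus TR-night-6h (0.503%) by edgeR or DESeq2, nor at an unadjusted p under 0.05 by either. In the uncorrected 24 h fit of all liver libraries Pck1, Tat and Got1 passed in no level comparison. The Pck1 folds against AL were 0.21, 0.07, -0.18 and -0.24, each ± 0.27. Got1 passed after GC correction in CR-night-6h minus AL (0.41, edgeR adjusted p = 0.0119) and CR-day-6h minus CR-night-6h (-0.46, 0.00854). With letter A alone Got1 passed in both of these and in CR-night-6h minus TR-night-6h (edgeR adjusted p = 0.0348, 0.0174 and 0.0161). Its folds were 0.46, -0.48 and 0.56 within letter A. Within letter B they were -0.18, -0.07 and -0.34, none past the threshold. The sign thus differed between letters in CR-night-6h minus AL and CR-night-6h minus TR-night-6h. With letter B alone Tat passed in CR-day-6h minus AL (edgeR adjusted p = 0.0344). Tat also passed by edgeR in TR-night-6h minus AL with 12 h cosines added (log2 fold -0.28) and on day 2 alone (-0.52). On day 1 alone Tat passed in CR-day-6h minus CR-night-6h (-0.55).

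The day minus night level difference was larger under CR than under TR for Pcx (log2 difference 1.03 ± 0.28, edgeR adjusted p = 0.00286) and Sds (0.78 ± 0.29, 0.0217), 2 of 8 enzymes, where 45.9% of all genes passed. Within letter A the values were 1.26 and 1.21, within letter B 0.14 and 0.18 and after GC correction 0.33 and 0.20, of which only letter A passed.

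The rest of the pathway was counted from 3 gene lists. Of 21 tested genes of the steps shared with glycolysis and of carbon shuttling, 3 were rhythmic in CR-day-6h, 0 in TR-day-6h, 9 in CR-night-6h, 6 in TR-night-6h and 3 in AL liver by the edgeR test, beside 16.4%, 15.4%, 35.3%, 26.4% and 12.4% of all genes. In TR-day-6h liver 4 of them had an unadjusted p under 0.05, and DESeq2 called 2.

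Of 22 regulators, 9 changed rhythm in CR-day-6h minus AL (21.9% of all genes) and 9 in TR-day-6h minus AL (16.3%). In CR-night-6h and TR-night-6h minus AL 0 passed by edgeR or DESeq2, with 1 and 0 at an unadjusted p under 0.05. Irs2, an insulin receptor substrate, peaked at CT 17.6 ± 0.753 in CR-day-6h and CT 18.1 ± 0.537 in TR-day-6h liver, hours close to those of Pck1, with amplitudes of 1.00 and 1.40 log2 units. In CR-night-6h, TR-night-6h and AL liver the Irs2 amplitude was 0.52, 0.76 and 0.47, each ± 0.20 (edgeR adjusted p for the rhythm 0.0833, 0.0253 and 0.242). In TR-night-6h liver, where its rhythm passed, Irs2 peaked at CT 5.11 ± 0.985, against CT 8.95 ± 0.606 for Pck1. In CR-night-6h and AL liver the fitted Irs2 peaks were CT 7.52 ± 1.44 and CT 2.96 ± 1.61, against CT 9.20 and CT 10.5 for Pck1. Foxo3, of the FOXO factors that insulin restrains, had amplitudes of 0.20 and 0.07 in CR-day-6h and TR-day-6h, against 0.55, 0.47 and 0.44 in CR-night-6h, TR-night-6h and AL liver. Its rhythm changed in CR-day-6h minus AL (edgeR adjusted p = 2.0e-05), as did that of the clock repressors Cry1 (1.5e-17) and Per1 (1.4e-04). Cry1, which also restrains glucagon signalling, peaked at CT 9.53 ± 0.453 in CR-day-6h and CT 20.5 ± 0.412 in AL liver.

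Of 18 amino acid breakdown genes, 7 changed rhythm in CR-day-6h minus AL (21.9% of all genes) and 6 in TR-day-6h minus AL (16.3%) by the edgeR test. In CR-night-6h and TR-night-6h minus AL 0 passed by edgeR or DESeq2, with 1 of the 18 in each at an unadjusted p under 0.05. Tdo2, which opens tryptophan breakdown, peaked at CT 19.6 ± 0.916 in CR-day-6h and CT 9.81 ± 0.627 in CR-night-6h liver. Hal, histidine ammonia-lyase, and Oat, ornithine aminotransferase, changed rhythm in CR-day-6h minus AL (edgeR adjusted p = 1.9e-04 and 9.1e-04). The level medians of the 3 lists in TR-day-6h minus AL were -0.84, 0.16 and -0.41 log2 units, beside -0.03 over all genes.

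Across the 60 means of regimen and time point, the genes whose liver pattern was most like Pck1 were Brap (Pearson's r = 0.839), Susd6 (0.818), Angptl4 (0.796), Sds (0.788) and Errfi1 (0.787). Among the other 7 enzymes Got1 followed Sds with r = 0.703 and Gpt2 with 0.431, and G6pc, Tat, Pcx and Fbp1 had 0.236, 0.223, 0.128 and 0.0545. G6pc and Pck1, the 2 genes whose upstream stretches are printed above, thus had unlike patterns over these means. The means share libraries, times and scaling, so these values describe likeness and were not tested.

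In BAT, Pck1 was measured in 12 CR-day-6h libraries (11 with counts) and 12 AL libraries, with 1 animal per time point per the file headers. CR-day-6h BAT held 610, 241, 181, 930 and 1060 CPM at 4, 8, 12, 16 and 20 h, and 2104, 616, 215, 291, 921 and 1554 CPM at 24, 28, 32, 36, 40 and 44 h. AL BAT held 1235, 1407, 1381, 1673, 806 and 377 CPM from 0 to 20 h, and 741, 832, 1398, 1352, 640 and 665 CPM from 24 to 44 h. In CR-day-6h the low libraries came at 8 and 12 h on both days and the high ones at 20 and 24 h. The 0 h library of CR-day-6h, which has RPKM alone, held 548 RPKM, the highest of the 24 BAT values.

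**Figure D5:**
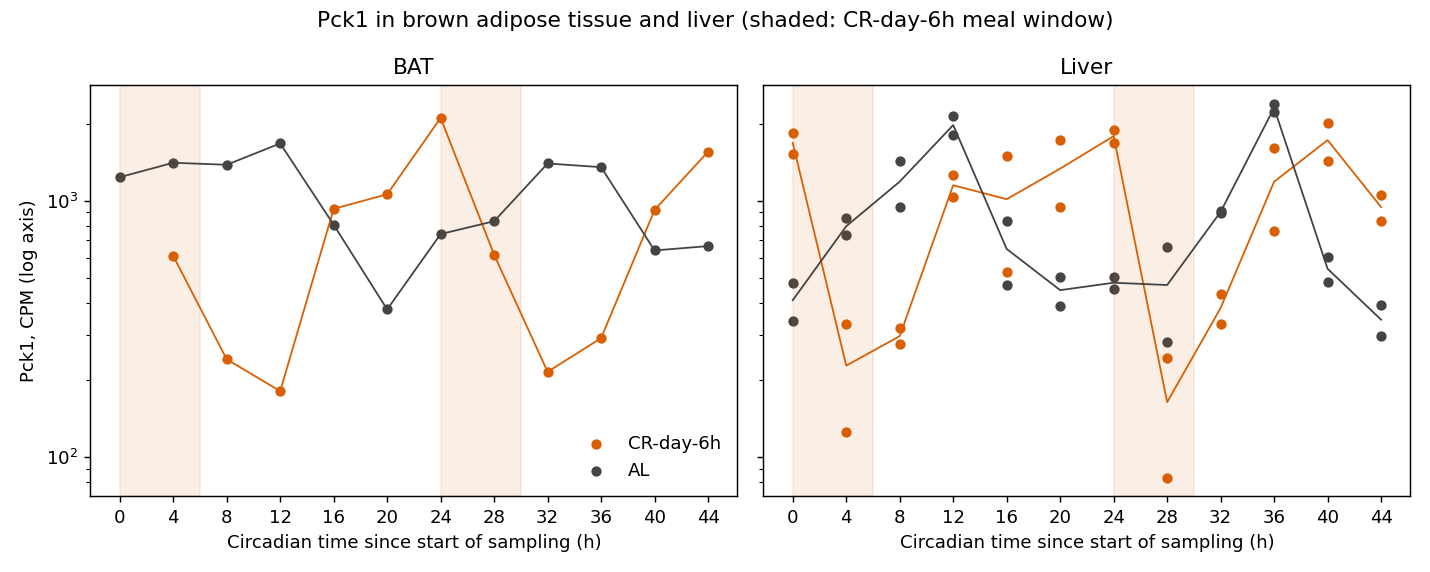
Pck1 in CPM (log axis) in each library of BAT (left) and liver (right) over 44 h of sampling, for CR-day-6h and AL, with lines through the mean at each time and the CR-day-6h meal window shaded. In CR-day-6h the lowest BAT values come 8 to 12 h after the meal start and the lowest liver values 4 to 8 h after it.

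The Pck1 wave of BAT peaked at CT 21.7 ± 0.426 in CR-day-6h and CT 8.10 ± 0.937 in AL, with amplitudes of 1.59 ± 0.18 and 0.70 ± 0.17 log2 units. Both rhythms passed the edgeR test (adjusted p = 9.8e-06 and 0.0215, where 15.5% and 10.4% of 10966 genes passed), and the rhythm changed between the groups (5.9e-06; 12.4% of genes). With day 1 or day 2 alone the AL rhythm was lost (adjusted p = 0.445 and 0.104 by edgeR). With day 1 alone that of CR-day-6h and the change were lost too (0.211 and 0.206, edgeR). Day 1 lacks counts for the CR-day-6h library at 0 h. The BAT peak shift was -10.4 ± 1.03 h, read within 12 h either way, and the cosine shift of liver between the same regimens was 7.54 ± 1.28 h. That liver value depends on the fit: with the 12 h component added it was 11.05 h, with the CR-day-6h liver peak at CT 22.3. The difference of the 2 rhythm responses did not pass (edgeR adjusted p = 0.909; 4.3% of genes). At CT 12 Pck1 stood at 236 ± 77.9 CPM in CR-day-6h BAT (n = 2) and 1168 ± 361 CPM in CR-day-6h liver (n = 4), beside 1512 ± 227 and 2138 ± 245 CPM in the AL tissues.

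The Pck1 level of BAT was lower in CR-day-6h (log2 fold -0.59 ± 0.16, edgeR adjusted p = 0.0279; 5.85% of genes changed). It did not pass after correction for GC content (-0.54, 0.0607). In liver the same fold was 0.21 ± 0.27, and the level response of BAT minus that of liver was -0.79 ± 0.33 (edgeR adjusted p = 0.256; 2.16% of genes passed). The 4 skeletal muscle markers summed to 52.8 to 610 CPM (median 347) in CR-day-6h BAT and 1.61 to 1726 CPM (median 1267) in AL BAT, and the 5 brown adipocyte markers had medians of 3572 CPM in CR-day-6h and 4490 CPM in AL. Their part in the Pck1 level was not tested. Letter and regimen coincide in BAT and cannot be told apart there.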

How the data were processed

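Poly(A) RNA was sequenced from 120 liver and 24 BAT samples. Per the submitters' processing notes the tools were FastQC, cutadapt, STAR and featureCounts; versions and genome build are not given in the sources used here, and the coordinates in the deposited tables are those of mm10. The deposited values are raw counts per gene and RPKM made by the authors, and RPKM recomputed from the counts matched in 120 liver and 23 BAT libraries within a relative tolerance of 0.001. In all, 143 count columns were used and 1, which holds values identical to those of 1 liver column, was not, so that 1 BAT library has RPKM only.

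Counts were filtered with filterByExpr, scaled by TMM and fitted with edgeR 4.0.16 (R 4.3.3), with an intercept and a 24 h cosine and sine per regimen, over 11926 liver or 10966 BAT genes. Quasi-likelihood F tests with Benjamini-Hochberg adjustment (threshold 0.05) gave rhythm, change of rhythm and level. Peaks and amplitudes came from least squares on log2 CPM computed here from the deposited counts (prior count 2). Their intervals are 1.96 SE wide on each side, and RPKM served only for levels between genes and the BAT library without counts. On simulated counts for the CR-day-6h minus AL comparison in liver (11812 genes), 14% of rhythm changes of 0.5 and 88% of those of 1 log2 unit were recovered. Of the simulated calls of changed rhythm in liver, 7.27% were false. In BAT 1% and 30% of such changes were recovered. The simulation gave every gene the same dispersion and the letters no difference. Its AL group had no rhythm, and changed genes gained a cosine and a level rise of that size in CR-day-6h. It therefore does not give the recovery of shifted peaks or lost rhythms. Nor does it give that for genes whose libraries spread more widely or whose letters differ. DESeq2 1.42.0 and the other alternatives are in the closing section. The genes named from the pathway lists are those with the smallest p, up to 4 a list, among members whose rhythm changed in CR-day-6h minus AL. Some of the genes this rule names are not reported here. The genes most like Pck1 are the 5 with the highest Pearson's r of mean log2 CPM, leaving out predicted models, Riken clones and pseudogenes. Members and lists were chosen with earlier results of these data known.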

Additional observations from a re-analysis of the deposited data

Results flagged for a closer look

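The level difference between day and night meals was larger under CR than under TR for Pcx (1.03 log2 units) and Sds (0.78 log2 units). The edgeR test was of that difference between CR and TR. Both values rest on letter A, as given above.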

How the results depend on the processing

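Day 1 alone left 1 rhythmic enzyme in CR-day-6h, 1 in TR-day-6h, 2 in TR-night-6h and 0 in AL liver, and day 2 alone 0, 1, 3 and 3, with 3 in CR-night-6h. With a separate intercept for each regimen and letter, or with GC correction, CR-day-6h had 5 rhythmic enzymes, and with 24 h and 12 h cosines TR-day-6h had 5. With 1 letter left out the rhythmic enzymes were 0 to 1 in CR-day-6h, 1 to 2 in TR-day-6h, 5 in CR-night-6h, 3 to 4 in TR-night-6h and 1 to 4 in AL liver. Changed rhythms on day 1 or day 2 alone numbered 1 and 1 in CR-day-6h minus AL, 1 and 2 in TR-day-6h minus AL, 1 and 2 in CR-day-6h minus CR-night-6h and 1 and 2 in TR-day-6h minus TR-night-6h. With 1 letter left out they numbered 2 to 5, 2, 3 and 3 to 4. These settings use fewer libraries.

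Changed levels with 1 letter left out numbered 3 to 5 in CR-day-6h minus AL, 2 to 5 in TR-day-6h minus AL, 2 to 4 in CR-night-6h minus AL, 4 to 5 in TR-night-6h minus AL, 0 to 4 in CR-day-6h minus CR-night-6h, 0 to 1 in TR-day-6h minus TR-night-6h, 0 to 5 in CR-day-6h minus TR-day-6h, 0 to 4 in CR-night-6h minus TR-night-6h and 0 to 2 in the interaction. GC correction left 2 in TR-day-6h and 2 in TR-night-6h minus AL and 0 in the interaction; either day alone left 0 in CR-day-6h minus AL and 0 in the interaction. Directions differed between letter B alone and letter A alone. In CR-day-6h minus AL the folds were -0.54 and 0.073 for Fbp1, -1.75 and 1.11 for Pcx, -1.06 and 0.74 for Sds, -0.51 and 0.40 for Gpt2 and 0.41 and -0.38 for G6pc, the last not past the threshold in either. In CR-day-6h minus TR-day-6h they were -0.060 and 2.04 for Pcx and -0.09 and 0.16 for Fbp1, with -0.13 for Fbp1 after GC correction. Pck1, Got1 and Tat also changed sign there, past the threshold in neither letter. In CR-night-6h minus TR-night-6h they were -0.20 and 0.78 for Pcx and -0.15 and 0.57 for Sds. For Got1 they were -0.34 and 0.56 and for Gpt2 -0.19 and 0.26. Each of these passed the edgeR threshold with letter A alone and not with letter B alone. Fbp1 and Tat also changed sign in that comparison, past the threshold in neither letter. The cause was not tested.

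In BAT, Pck1 lost its rhythm on day 1 alone in CR-day-6h (adjusted p = 0.211, edgeR) and AL (0.445), on day 2 alone in AL (0.104), and its change on day 1 alone (0.206). Its level fold was -0.59 with no filter, -0.87 and -0.34 on single days and -0.54 with GC correction, none past the threshold. With the letter as a replicate block TR-night-6h had 6 rhythmic enzymes in place of 5, the added one being Fbp1 (adjusted p = 0.0420, edgeR), and no other count moved. Deviations of libraries from the fit were correlated between regimens at the same time point. The median over pairs of regimens of their median correlation was 0.0337 for the same letter and 0.0586 for other letters. That fit had no term for the letter, so offsets of whole sets enter these values. They cannot show whether equal letters pair the samples. Between CR-day-6h and AL the median was -0.373 for the same letter and 0.481 for the other letter (23 of 24 pairs over 0.1), so the within-letter folds of that comparison set unlike sets of libraries against each other.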
